A study of Mus musculus with 10 samples.

Results

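Peptidylarginine deiminases, the products of Padi1, Padi2, Padi3 and Padi4, were followed in mouse oviducts with and without the progesterone receptor. The 4 genes were taken as a family by symbol. Each had exactly 1 probe set annotated to it alone, out of 19938 named genes on the array. The rule would have taken the brightest probe set over the 10 arrays, and with 1 probe set per gene it made no choice. The family was chosen by the difference of Padi4 between PRKO and PR+/- on these same arrays. The genotype differences of the 4 members are therefore given as a description, with their errors and without p-values.

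Peptidylarginine deiminases are calcium-dependent enzymes that convert arginine residues of proteins into citrulline, which removes a positive charge and can loosen protein structure. Padi1 and Padi3 are best known from skin and hair follicle, where they act on keratins, filaggrin and trichohyalin. Padi2 is widely expressed, in brain, muscle, secretory glands and the female tract. Padi4 carries a nuclear localization signal, citrullinates histones and is abundant in granulocytes. Members of the family are known to respond to estrogen in the rodent uterus and pituitary.

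The arrays compared 2 genotypes of prepubertal females, 21 to 23 days old at the first injection. PRKO animals were homozygous for a lacZ insertion in Pgr that disrupts both receptor isoforms, and the PR+/- controls carried 1 such allele, so the insertion is present in both groups. Both genotypes were injected with equine chorionic gonadotropin (eCG, 5 IU), which drives follicle growth, and 44 to 47 h later with human chorionic gonadotropin (hCG, 5 IU), the ovulatory stimulus. Whole oviducts were taken 8 h after hCG. Each array held RNA pooled from 3 animals, with 5 arrays and 15 animals per genotype, and no array was taken before hCG. The insertion is carried in every tissue, ovary included, so loss of the receptor in the oviduct and elsewhere cannot be told apart.

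Values are log2 signals, so a difference of 1 is a doubling, and the number of arrays limits their precision. Signals of different genes come from different probes and were not set against each other. Pgr had a log2 signal of 7.42 ± 0.11 (SD, n = 5) in PR+/- pools and 6.36 ± 0.037 (SD, n = 5) in PRKO pools, without overlap. Oviduct epithelial genes were present on all arrays, with Pax8 between 8.17 and 8.66 and Krt8 between 9.06 and 9.54. Array medians lay between 5.20 and 5.28. The interquartile range of signals was 3.37 to 3.48 on PR+/- arrays and 3.13 to 3.42 on PRKO arrays. Of all named genes, 4.96% were called at a limma adjusted p under 0.05, with 1.09% higher in PRKO and 3.87% lower, and the median log2 difference was 0.03.

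Of the 4 genes, Padi4 had the largest difference, higher in PRKO oviducts, and the values of the other 3 overlapped between genotypes. Padi4 signal was 2.12-fold higher without the receptor (95% interval 1.81 to 2.49). Since the family was chosen for Padi4, no calls are counted for its members, and nothing is read from the 1.09% of all genes called higher.

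Padi4, which carries a nuclear localization signal, had log2 signals of 4.16, 4.13, 4.38, 4.37 and 4.06 in PR+/- replicates 1 to 5. In PRKO replicates 1 to 5 they were 5.26, 5.15, 5.52, 5.54 and 5.07. Every PRKO pool lay above every PR+/- pool, with 0.69 between the lowest PRKO and the highest PR+/- value. The log2 difference was 1.09 ± 0.11 (SE, n = 5 against 5). Of the 19938 genes, 3 had a larger rise. Over all genes, 7.2% were without overlap between the genotypes and 2.15% were without overlap and higher in PRKO. Because the whole oviduct was assayed, more cells that express a gene and more RNA per cell cannot be told apart, here and for every gene below. Mean Padi4 signal was above only 43.0% of the array's probe sets, and an array understates fold changes near background.

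Padi2, the widely expressed member, had log2 signals of 8.57, 8.64, 8.59, 8.68 and 8.48 in PR+/- replicates 1 to 5. In PRKO replicates 1 to 5 they were 8.97, 8.82, 8.82, 8.82 and 8.65. All but PRKO replicate 5 lay above every PR+/- pool, and the lowest PRKO value was 0.03 under the highest PR+/- value. The log2 difference was 0.23 ± 0.077 (SE, 95% interval 0.06 to 0.39), a 1.17-fold higher signal. It was 0.28 after quantile normalization, which gives every array the same distribution, and 0.28 after cyclic loess normalization.

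Padi1, which acts on keratins and filaggrin, had similar means and a wider spread in PRKO. Its log2 signals were 8.50, 8.47, 8.49, 8.37 and 8.33 in PR+/- replicates 1 to 5 and 8.70, 8.79, 8.37, 8.33 and 8.19 in PRKO replicates 1 to 5. PRKO replicates 1 and 2 lay above all PR+/- pools and PRKO replicate 5 below them. The SD was 0.078 in PR+/- and 0.26 in PRKO. The log2 difference was 0.04 ± 0.11 (SE, 95% interval -0.19 to 0.28), and it was -0.01 without PRKO replicate 1 and -0.03 without PRKO replicate 2.

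Padi3, the hair follicle member, had log2 signals of 4.82, 4.97, 4.93, 5.13 and 5.01 in PR+/- replicates 1 to 5 and of 5.38, 5.00, 4.94, 4.90 and 5.42 in PRKO replicates 1 to 5. PRKO replicates 1 and 5 stood above all other pools, while PRKO replicates 2 to 4 lay among the PR+/- values. The log2 difference was 0.16 ± 0.11 (SE, 95% interval -0.08 to 0.39), and it was -0.03 when PRKO replicates 1 and 5 were left out.

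**Figure D1:**
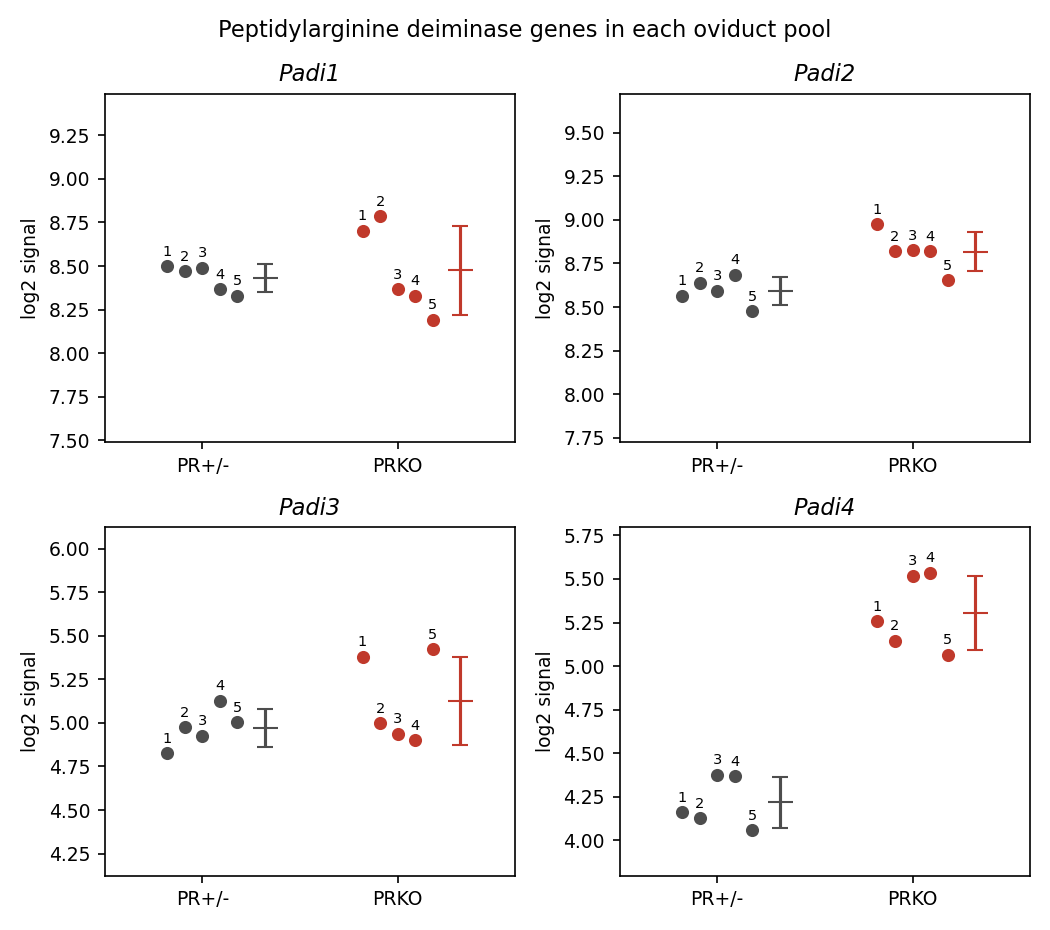
Log2 signal of Padi1, Padi2, Padi3 and Padi4 in each oviduct pool, in panels that each span 2 log2 units. Points are arrays numbered by replicate, and the bar beside each group is its mean ± SD (n = 5). Padi4 lies between 4.06 and 4.38 in PR+/- and between 5.07 and 5.54 in PRKO, while the groups of the other 3 genes overlap.

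Set against each other within arrays, the members gave unequal values. The log2 difference between genotypes was larger for Padi4 than for Padi1 by 1.04 ± 0.18, than for Padi2 by 0.86 ± 0.10 and than for Padi3 by 0.93 ± 0.21 (SE). Padi2 against Padi1 came to 0.18 ± 0.096, and to 0.26 without PRKO replicate 2. Padi3 against Padi1 came to 0.11 ± 0.18 and Padi3 against Padi2 to -0.07 ± 0.14. Since Padi4 was chosen for this difference, the 6 pairs are a description and carry no test.

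The genes lie next to each other on chromosome 4, in the order Padi6, Padi4, Padi3, Padi1 and Padi2 in the annotation of the GRCm38 assembly, with Padi2 read from the strand opposite to Padi1, Padi3 and Padi4. The 250 bases before the annotated start of each member (RefSeq, GRCm38.p6) are shown because neighbouring copies of 1 family differed in their change. All 4 symbols matched the promoter table. Each window is written 5′ to 3′ on the gene's own strand, and capitals mark matches to the motifs searched on both strands.
Padi1: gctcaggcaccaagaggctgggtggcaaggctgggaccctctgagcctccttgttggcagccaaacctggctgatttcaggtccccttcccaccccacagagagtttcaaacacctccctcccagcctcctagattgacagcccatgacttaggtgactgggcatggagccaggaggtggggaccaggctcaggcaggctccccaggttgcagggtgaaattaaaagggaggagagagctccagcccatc
Padi2: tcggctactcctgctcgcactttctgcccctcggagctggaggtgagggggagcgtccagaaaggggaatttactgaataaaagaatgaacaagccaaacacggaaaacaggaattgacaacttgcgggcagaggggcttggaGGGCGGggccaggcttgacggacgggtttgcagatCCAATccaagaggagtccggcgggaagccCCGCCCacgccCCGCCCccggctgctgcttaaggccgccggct
Padi3: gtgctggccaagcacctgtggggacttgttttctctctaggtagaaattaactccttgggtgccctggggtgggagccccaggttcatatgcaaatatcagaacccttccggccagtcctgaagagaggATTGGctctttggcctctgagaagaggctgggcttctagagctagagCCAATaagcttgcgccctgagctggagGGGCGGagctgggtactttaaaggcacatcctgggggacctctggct
Padi4: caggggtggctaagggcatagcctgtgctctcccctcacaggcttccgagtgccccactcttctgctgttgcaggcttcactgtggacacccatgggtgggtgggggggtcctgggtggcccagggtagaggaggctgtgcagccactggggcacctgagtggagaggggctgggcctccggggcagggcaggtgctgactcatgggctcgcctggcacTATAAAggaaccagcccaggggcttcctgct
The windows are chr4:140845779-140846028 on the minus strand for Padi1, chr4:140906110-140906359 on the plus strand for Padi2, chr4:140810649-140810898 on the minus strand for Padi3 and chr4:140774204-140774453 on the minus strand for Padi4.

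The 4 windows differed in makeup. The Padi4 window held a TATA box, TATAAA, that began 31 bases before the start, which 12.4% of 32851 such windows hold anywhere on either strand. The Padi2 window held 3 Sp1 boxes (GGGCGG, in 32.7% of windows) and 1 NF-Y box (CCAAT, in 33.8%), and its 17 CpG dinucleotides exceeded those of 76.5% of windows. The Padi3 window held 2 NF-Y boxes, 1 Sp1 box and 3 CpG, as many CpG as that of Padi4. None of the 6 motifs matched in the Padi1 window, which had 0 CpG, against a median of 6 over all windows. The palindromic estrogen response element, its arm GGTCA (which that element contains) and the progesterone response element arm TGTTCT had no match in any of the 4 windows. They occur in 0.0639%, 35.2% and 16.1% of all windows. A match describes letters only, and a lack of one concerns these 250 bases alone.

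Of the 6 measured neighbours of the cluster, 1 fell, 0 rose and 5 did not pass, where 3.87% of all genes were called lower and 1.09% higher. Mfap2, a microfibril protein of elastic fibres, fell by 0.71 ± 0.11 (SE, 1.63-fold lower, limma adjusted p = 0.00205) and was the neighbour called. With granulocyte marker signal as a covariate, an alternative described below, its log2 difference was -0.87 ± 0.23 and its adjusted p 0.173. Rcc2, a regulator of chromosome condensation on the side of Padi6, had a log2 difference of -0.29 ± 0.079 (limma adjusted p = 0.0551), and 6 alternatives called it, among them the fit without PRKO replicate 1 (-0.33, adjusted p = 0.0320). Its difference was -0.18 with the interquartile range of the arrays as a covariate (adjusted p = 0.481) and -0.036 with granulocyte marker signal as a covariate (adjusted p = 0.963). Sdhb, a subunit of mitochondrial complex II next to Padi2, had a difference of -0.16 ± 0.064 (limma adjusted p = 0.174). Atp13a2, Arhgef10l and Gm9867 had differences of -0.03, -0.11 and -0.04, and the signs of these 3 turned in some alternatives.

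**Figure D2:**
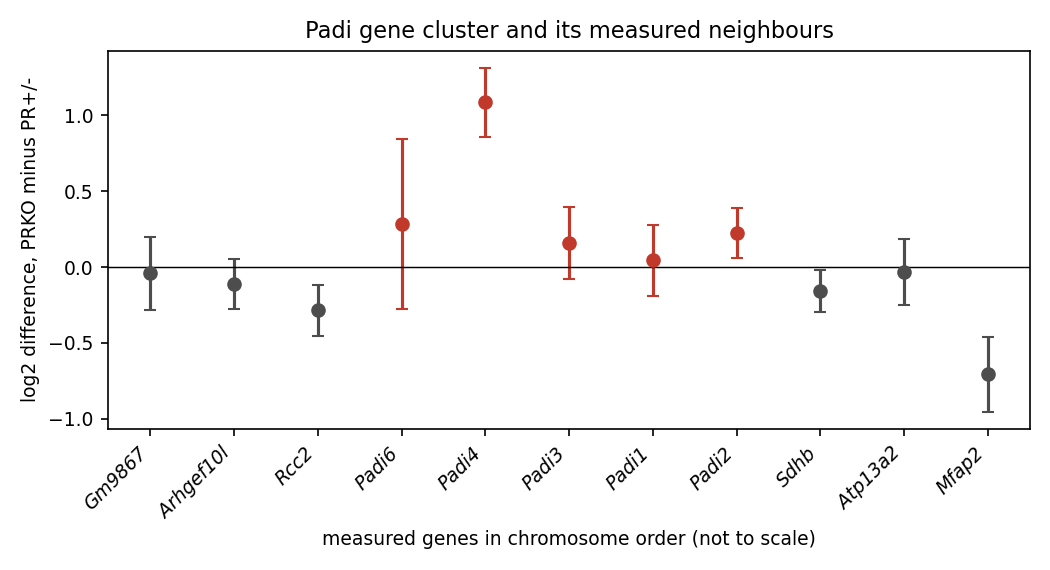
Log2 difference (PRKO minus PR+/-) of the 11 measured genes at and around the Padi cluster, in chromosome order and not to scale. Points are limma estimates with 95% intervals (n = 5 against 5), Padi genes in red. Padi4, at 1.09, stands alone above its neighbours, and Mfap2, at -0.71, is the lowest.

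Padi6, the oocyte member of the family, was read beside the 4 genes. Its log2 signals were 3.47, 4.004, 3.60, 4.80 and 3.38 in PR+/- replicates 1 to 5 and 3.64, 4.11, 4.80, 3.71 and 4.40 in PRKO replicates 1 to 5. The highest pool of each genotype, PR+/- replicate 4 and PRKO replicate 3, reached 4.80. These were also the pools with the highest signal of Zp2, a zona pellucida protein of oocytes (4.33 and 4.10, against 2.91 to 3.76 on the other 8 arrays). Cyp11a1, the enzyme that starts steroid synthesis, reached 7.04 and 7.10 in them and 3.05 to 4.68 elsewhere. The log2 difference of Padi6 was 0.28 ± 0.26 (limma adjusted p = 0.559), 0.12 without PRKO replicate 3, 0.52 without PR+/- replicate 4 and 0.35 without both. Padi4 differed by 1.07 when these 2 pools were left out.

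**Figure D3:**
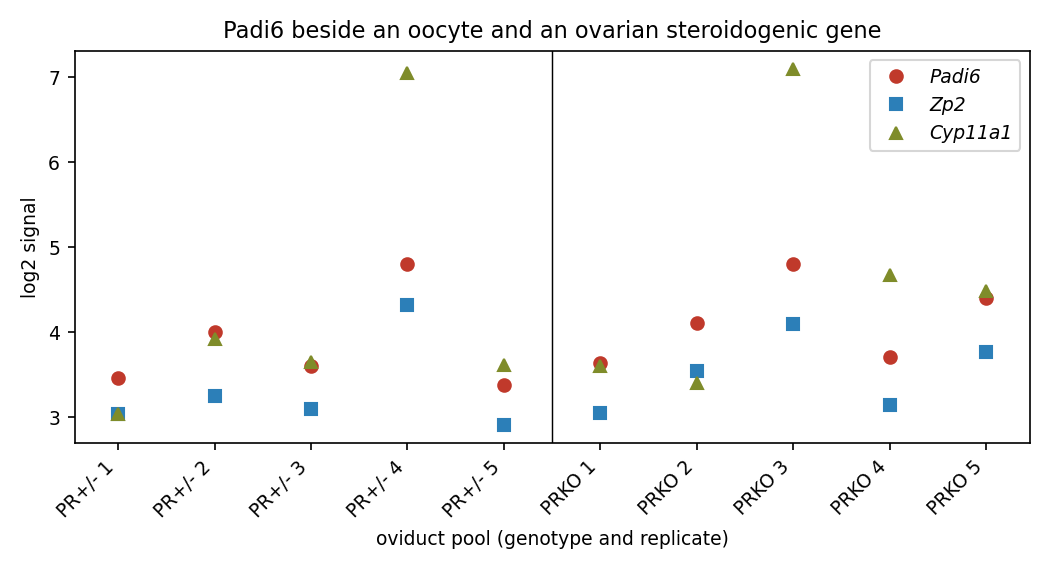
Log2 signal of Padi6, Zp2 and Cyp11a1 (vertical axis) on each of the 10 arrays, by genotype and replicate. Points are single arrays. All 3 genes reach their highest value of each genotype in PR+/- replicate 4 and PRKO replicate 3.

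Granulocytes are a known site of Padi4 expression, and marker genes of these cells were read beside it. Of 20 listed granulocyte genes 18 were measured, and 2 rose, 0 fell and 16 did not pass. The median log2 difference of the 18 was 0.18, against 0.03 over all genes. From 5.88% (Stfa2) to 62.6% (Cd177) of the array's probe sets were dimmer than these genes, and genes of like brightness were not compared. The shares called over all genes were 1.09% higher and 3.87% lower. In limma, 7 of the 18 were higher and 0 lower at an unadjusted p under 0.05. Of all 19938 genes, 2007 were higher and 2208 lower at that threshold. Prtn3, the neutrophil granule protease proteinase 3, had signals of 3.95 to 4.37 in PR+/- and 4.38 to 4.76 in PRKO and rose by 0.48 ± 0.10 (SE, limma adjusted p = 0.0138). Ngp, a neutrophil granule protein, rose by 0.50 ± 0.12 (limma adjusted p = 0.0259). The call of Ngp was lost without PR+/- replicate 1, 2 or 4 or PRKO replicate 5 (adjusted p 0.0532 to 0.0758) and after quantile normalization (0.0686). The call of Prtn3 was lost without moderation of the variance, with the interquartile range as a covariate, without both PRKO 1 and PRKO 5 and without both PR+/- 4 and PRKO 3 (adjusted p 0.0572 to 0.191). Prtn3 and Ngp are both best known from immature granulocytes, but the stage of any such cells was not measured. The granule enzymes Mpo, Elane and Ctsg did not pass.

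Other granulocyte genes did not pass. S100a8 and S100a9, the calcium-binding proteins that fill mature neutrophils, had log2 differences of 0.21 and 0.34 (limma adjusted p 0.280 and 0.173), with S100a9 highest in PRKO replicates 4 and 5, at 4.85 and 4.86. Mpo and Elane, granule enzymes, differed by 0.14 and 0.11, Ctsg, another granule protease, by 0.42 (limma adjusted p = 0.0583) and Itgam, an integrin of myeloid cells, by 0.31 (limma adjusted p = 0.116). Of the 18 genes, 14 had a positive difference. Mmp8 (-0.23), Cd177 (-0.14), Cxcr2 (-0.07) and Csf3r (-0.03) were lower in PRKO, and Ly6g and Mmp9 differed by 0.003 and 0.01. Without PRKO replicate 2 or PRKO replicate 4, 4 of the list were called higher, and without PR+/- replicate 1, 2 or 4 or PRKO replicate 5 only 1. None of the list was called without moderation, with the interquartile range as a covariate or without both PR+/- 4 and PRKO 3. Mean signals of Prtn3 and Ngp were above only 36.3% and 18.6% of the array's probe sets. Removal of the dimmest 50% therefore took out both and could not test their calls. The summed linear signal of the 18 genes was 321 to 337 in PR+/- and 327 to 370 in PRKO. Their mean log2 signal was 3.82 to 3.89 in PR+/- and 3.93 to 4.10 in PRKO and so did not overlap. Whether other genes of like brightness differ in the same way was not tested.

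With that mean signal as a covariate, an alternative added after the data were seen, the log2 difference was 1.17 ± 0.21 for Padi4, 0.54 ± 0.15 for Padi1, 0.45 ± 0.13 for Padi2 and 0.010 ± 0.22 for Padi3 (SE). Padi1 and Padi2 thus lay closer to Padi4 than without the covariate. The covariate did not overlap between the genotypes, so its part and that of genotype cannot be told apart, and with it 102 genes were called in place of 988. Padi4 is itself a granulocyte gene, and which cells of the oviduct gave its signal was not measured. Of 12 macrophage genes, 0 passed at a limma adjusted p under 0.05, with differences from -0.27 to 0.36, a median of 0.01 and, at an unadjusted p under 0.05, 2 higher and 2 lower. Their summed signal was 964 to 1056 in PR+/- and 1002 to 1127 in PRKO. Over all genes, 1.09% were called higher and 3.87% lower.

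**Figure D4:**
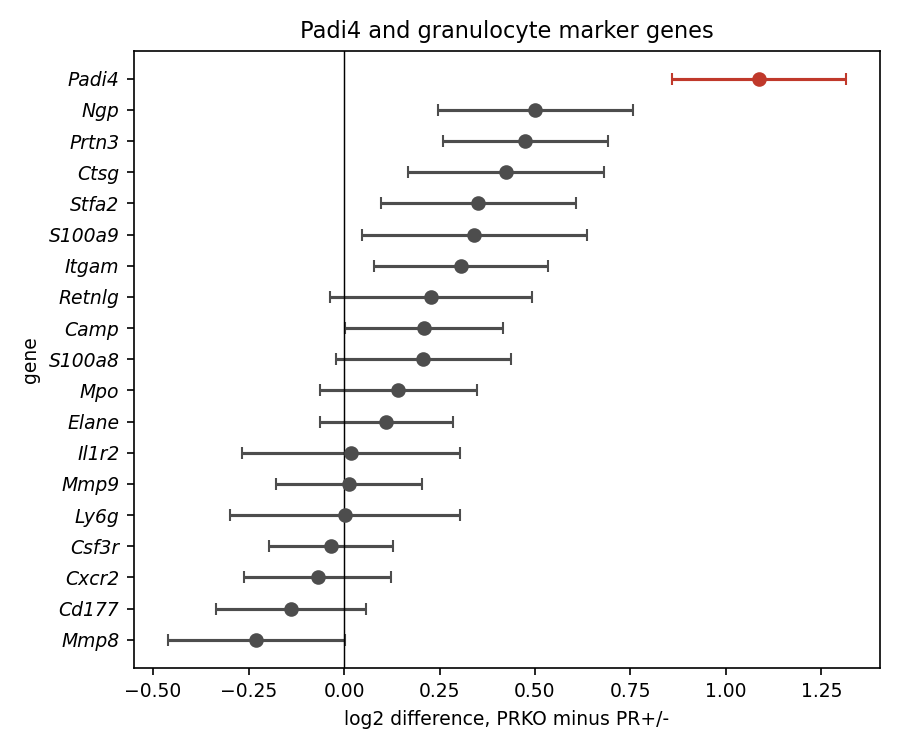
Log2 difference (PRKO minus PR+/-, horizontal axis) of Padi4 and of the 18 measured granulocyte marker genes. Points are limma estimates with 95% intervals (n = 5 against 5). Padi4 lies at 1.09, above the highest marker, Ngp, at 0.50.

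Proteins described as substrates of the family showed no call. Of 23 measured, 0 passed at a limma adjusted p under 0.05, with differences from -0.27 to 0.44 and a median of 0.06. Among them 2 were higher and 1 lower at an unadjusted p under 0.05. Of all 19938 genes, 2007 were higher and 2208 lower at that threshold. Vim, the intermediate filament vimentin, had a log2 difference of -0.27 ± 0.075 (limma adjusted p = 0.0574) and was called in 4 alternatives, among them the fit without PRKO replicate 2 (adjusted p = 0.0428). It was -0.15 with the interquartile range and -0.096 with granulocyte marker signal as a covariate. Krt1, a keratin of the epidermis, differed by 0.27 ± 0.083 (limma adjusted p = 0.0822) and was also called without PRKO replicate 2 (0.0419). It was 0.14 with the interquartile range and 0.15 with granulocyte marker signal as a covariate. Of 10 genes for protein arginine methyltransferases and Jmjd6, which act on the same residue, 0 passed and 1 was higher at an unadjusted p under 0.05. Their differences ran from -0.16 to 0.17.

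Enzymes that make or use free citrulline or arginine moved in both directions. There were 9 measured, of which 1 rose, 3 fell and 5 did not pass (median -0.01). The shares called over all genes were 1.09% higher and 3.87% lower. Arg1, the cytosolic arginase, rose by 0.62 ± 0.11 (SE, limma adjusted p = 0.00473), and Arg2, the mitochondrial arginase, fell by 0.66 ± 0.088 (limma adjusted p = 3.96e-04). Neither overlapped between genotypes, as was so for 7.2% of all genes. Ddah2, which breaks down methylated arginine to citrulline, fell by 0.34 ± 0.079 (limma adjusted p = 0.0223), and Asl, argininosuccinate lyase, by 0.38 ± 0.10 (0.0494). Ddah2 lost its call without PR+/- replicate 1, 2 or 3 or PRKO replicate 3 (adjusted p 0.0570 to 0.0694), and Asl without any array other than PR+/- replicate 5 or PRKO replicate 1 (0.0524 to 0.132). With granulocyte marker signal as a covariate all 4 calls were lost (adjusted p 0.173 to 0.929), at differences of 0.82 for Arg1, -0.42 for Arg2, -0.32 for Ddah2 and -0.078 for Asl. With the interquartile range as a covariate Asl differed by -0.19.

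Estrogen-responsive genes of the tract, a group in which members of the family are placed, also split. The list, which leaves out the Padi genes, had 14 measured members, and 2 rose, 3 fell and 9 did not pass (median 0.11). The shares called over all genes were 1.09% higher and 3.87% lower. Wnt7a, a Wnt ligand of Müllerian epithelium, rose by 0.58 ± 0.089 (SE, limma adjusted p = 0.00116) and Ltf, lactoferrin, by 0.40 ± 0.098 (0.0282). Greb1, an estrogen receptor cofactor, fell by 0.65 ± 0.082 (limma adjusted p = 2.83e-04) and Myc, a growth regulator, by 0.47 ± 0.11 (0.0305). Pgr, which fell by 1.06, is the targeted gene, so its fall was set by the genotype. Ltf lost its call without PR+/- replicate 1, 2 or 3 or PRKO replicate 1, 3 or 4 (adjusted p 0.0544 to 0.0835), and Myc without PR+/- replicates 1 to 4 or PRKO replicate 1, 3 or 5, each alone (0.0586 to 0.0814). Myc differed by -0.21 with the interquartile range as a covariate (adjusted p = 0.515) and by -0.045 with granulocyte marker signal (adjusted p = 0.966). With granulocyte marker signal the calls of Wnt7a, Greb1 and Ltf were also lost, at differences of 0.63, -0.48 and 0.32. Esr1, the main estrogen receptor of the oviduct, had log2 signals of 9.96 to 10.05 in PR+/- and 10.01 to 10.12 in PRKO and a difference of 0.05 ± 0.064 (limma adjusted p = 0.689). Among 13 measured regulators and partners of the family, only Pgr, the targeted gene, fell, and the other 12 did not pass.

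For each member, the genes with the most similar pattern were those with the highest Pearson r to it over the 10 arrays among 17051 genes, an r that is high by selection and shares genotype and array. Those nearest Padi4 were Prpf4b, a splicing kinase (r = 0.98), Ckmt1, the mitochondrial creatine kinase of epithelia (0.97), Pkp4, a plakophilin of cell junctions (0.97), Wasf1, an actin regulator (0.97), and Wnt7a (0.96). Likeness to Padi4 over both genotypes selects for a difference between them, so these are given without a test. The log2 difference was 0.57 ± 0.080 for Ckmt1, 0.33 ± 0.065 for Pkp4, 0.45 ± 0.068 for Wasf1 (SE) and 0.21 for Prpf4b. With each genotype's mean removed, their r to Padi4 was 0.85 for Prpf4b, 0.71 for Ckmt1, 0.60 for Pkp4, 0.57 for Wasf1 and 0.72 for Wnt7a. These r come from the same arrays that chose the genes, so they too are raised by selection.

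The other members had different near neighbours in pattern. Nearest Padi2 were Itgb4, the integrin beta 4 of epithelial hemidesmosomes (r = 0.94), Adgrv1, an adhesion receptor (0.92), Tbc1d14, a regulator of vesicle traffic (0.92), Klf4, an epithelial transcription factor (0.91), and Dhrs9, a retinol dehydrogenase (0.91). Itgb4 had a log2 difference of 0.28. The r of Adgrv1 was 0.55 after cyclic loess normalization and 0.71 after quantile normalization. Nearest Padi1 were Srebf2, the regulator of sterol synthesis (0.96), Dph5 (0.94), Zfp707 (0.94), Lasp1 (0.93) and the cation channel Trpv4 (0.93), with differences of -0.06 to 0.07. Nearest Padi3 were Dpm3 (0.96), Trh (0.94), Pate1 (0.93), Klre1 (0.93) and Rxfp4 (0.93). No gene stood in more than 1 of these 4 groups. Within genotypes, the r of deviations between the members themselves differed in sign. It was 0.60 between Padi1 and Padi2, 0.44 between Padi2 and Padi4 and -0.48 between Padi3 and Padi4. Between Padi1 and Padi3 it was -0.13, between Padi1 and Padi4 -0.15 and between Padi2 and Padi3 0.02.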

How the data were processed

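The authors deposited 1 table of log2 signal per probe set and array, made with Partek (per the submitters' processing notes). The log2 scale was inferred from the values, while version, background correction, normalization and probe summary were not given in the sources used here. No further normalization was applied. Probe sets were named through the platform's annotation table. Of 35557 rows, 21789 had 1 symbol, 1621 several and 12147 none in that table, which left 19938 genes with the brightest probe set each. The test was limma 3.58.1 (R 4.3.3) with genotype as the only term, Benjamini-Hochberg adjustment over all genes and a call at an adjusted p under 0.05. The replicate is the pool, and p-values therefore rest on pool-to-pool spread. The genotype differences of the 4 members and of their pairs are printed without p-values, because the family was chosen by that contrast. The members and the 12 gene lists were chosen with earlier results of these data known. Named genes were the Padi genes, Pgr, 3 measured neighbours on each side, up to 4 called members per list and 5 genes per member by likeness. Other list members, named after their values were seen, were Myc, Esr1, S100a8, S100a9, Mpo, Elane, Ctsg, Itgam, Vim, Krt1, Zp2, Cyp11a1, Pax8 and Krt8. Mmp8, Cd177, Cxcr2, Csf3r, Ly6g, Mmp9 and Stfa2 were named later and were not checked singly for outliers or in the alternatives. Genes named by likeness alone were not checked for outliers, and only their r was followed in the alternatives. Zp2, Cyp11a1, Pax8 and Krt8 were checked for outliers but not singly in the alternatives. Promoters were searched in Python 3.11.15. The procedure was tested on simulated data. Alternatives covered normalization, dim probe sets, probe set means, the variance model, weights, a replicate block, covariates, thresholds and arrays left out.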

Additional observations from a re-analysis of the deposited data

Results flagged for a closer look

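Groups of 5 arrays were examined for named genes, each genotype apart, without the genes named by likeness alone. Of 82 such groups, 6 held an array that stood apart from the other 4 by Dixon's 95% criterion, and chance alone flags about 1 in 20. None of the 6 was in Padi1, Padi2, Padi3, Padi4 or Padi6. Zp2 and Cyp11a1 stood apart in PR+/- replicate 4, at 4.33 (other PR+/- arrays 2.91 to 3.25) and 7.04 (3.05 to 3.92). Gm9867 stood apart in PR+/- replicate 5, at 4.81 (4.36 to 4.41), and Arg2 in PR+/- replicate 1, at 6.23 (6.39 to 6.44). Des stood apart in PR+/- replicate 4, at 8.40 (8.58 to 8.64), and Greb1 in PRKO replicate 5, at 8.04 (8.25 to 8.33).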

How the results depend on the processing

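Padi4 had log2 differences of 1.03 to 1.18 in the 24 alternatives in which it could be fitted. It and Padi3 could not be fitted after removal of the dimmest 50% of probe sets, so low signal limits what the array can say of them. Padi2 differed by 0.28 after quantile and after cyclic loess normalization, 0.31 with the interquartile range and 0.45 with granulocyte signal as a covariate. Padi1 turned to -0.01 without PRKO replicate 1 and -0.034 without PRKO replicate 2, and ran from -0.034 to 0.11 over single arrays left out, but was 0.27 with the interquartile range and 0.54 with granulocyte signal. Padi3 turned to -0.061 with the interquartile range as a covariate and -0.026 without both PRKO 1 and PRKO 5. Padi2 against Padi1 ran from 0.15 to 0.26 and Padi3 against Padi1 from -0.032 to 0.22 over single arrays left out, with the highest value of the first without PRKO replicate 2 and the sign of the second turned without PRKO replicate 5. Of the neighbours, Gm9867 ran from -0.10 to 0.044 over single arrays left out (0.044 without PR+/- replicate 5), and Arhgef10l turned to 0.010 with granulocyte signal as a covariate. Atp13a2 turned to 0.0038 with quantile normalization, 0.0045 with cyclic loess, 0.029 with array weights, 0.11 with the interquartile range, 0.19 with granulocyte signal, and 0.042 without both PRKO 1 and PRKO 5, and ran from -0.081 to 0.043 over single arrays left out. The 988 calls over all genes became 322 with the interquartile range, 102 with granulocyte signal, 562 without PR+/- 4 and PRKO 3, 412 at an adjusted p under 0.01, 248 at 1.5-fold or more, and 581 to 1165 with single arrays left out, where the lowest counts, 581 and 598, came when PR+/- replicate 1 or 2 was left out. The count of higher genes, 217, moved by over 1.5 times in 15 of 27 alternatives. The causes were not tested. Whether the replicate numbers mark pairs of arrays was not settled. The correlation of deviations between arrays of the same number was -0.01 to 0.16, and 5 of 10 arrays were closest to their own number. With the replicate block Padi4 differed by 1.09 ± 0.070 (SE, against ± 0.11 without it) and Padi2 by 0.23, and 1042 genes were called.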

Other observations

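Marker lists of other cell types of the oviduct gave the setting in which the Padi genes were read. Of 7 smooth muscle genes, 7 fell and 0 rose, where 3.87% of all genes were called lower and 1.09% higher. Their log2 differences ran from -1.51 for Des, the muscle intermediate filament desmin, to -0.60. The summed linear signal of the 7 was 9304 to 10350 in PR+/- and 5170 to 6564 in PRKO. Of 6 measured epithelial genes, 0 passed and 0 had an unadjusted p under 0.05 in limma, with differences from -0.21 to 0.10 and summed signals of 3023 to 3633 in PR+/- and 2792 to 3598 in PRKO. Whether a change in the share of muscle bears on the Padi4 signal was not tested.

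Of 8 measured granulosa and luteal genes, 1 rose and 7 did not pass, where 1.09% of all genes were called higher. Inhbb, an activin subunit, was the gene that rose (log2 difference 0.44, limma adjusted p = 0.0353). Its call was lost without PR+/- replicate 2, 3, 4 or 5 or PRKO replicate 3 or 4 (adjusted p 0.0578 to 0.0901). Of 10 oocyte genes, 0 passed and 1 was higher at an unadjusted p under 0.05, with a median of 0.07. Of all 19938 genes, 2007 were higher at that threshold. The summed signal of the oocyte genes was 162 to 246 in PR+/- and 167 to 275 in PRKO.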
